A study of Mus musculus with 32 samples.

Results

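The genes analysed here encode the proteins of the mitochondrial ribosome. They were chosen by symbol, as the protein-coding genes of the GENCODE M21 annotation (mm10) whose names begin with Mrpl or Mrps and a number, and 78 of 21938 protein-coding genes met this rule. H3K4me3, H3K9ac, H3K27ac and H3K4me1 were mapped by ChIP-seq in bone marrow of terminal primary *MLL-AF9* leukemias, with 2 replicates of each of the 4 marks in each genotype. All donors were *Kat2a* Flox/Flox and received pIpC, which induces the interferon-responsive *Mx1-Cre*. WT donors were Mx1-Cre -/- and KO donors Mx1-Cre+/-, so that only the KO cells could excise *Kat2a*. Lineage-depleted marrow of these donors was transduced with a retrovirus for *MLL-AF9* and transplanted into lethally irradiated recipients, whose leukemic marrow was pooled from 5 animals for WT and 4 animals for KO. The replicates of a genotype were separate cell samples and chromatin preparations of 1 pool, so p-values measure only the spread between preparations and not between animals. In pooled marrow, fewer cells that carry a mark and less of the mark per cell cannot be told apart.

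The mitochondrial ribosome translates the few proteins encoded by mitochondrial DNA, which are core subunits of the respiratory chain and of ATP synthase. Its RNAs come from the mitochondrial genome, but its proteins are all encoded in the nucleus, translated in the cytosol and imported. A large subunit forms the peptide bond and a small subunit binds the mRNA. Some of the proteins have bacterial counterparts and others were added in mitochondria. *Kat2a* encodes a histone acetyltransferase that deposits H3K9ac. H3K4me3, H3K9ac and H3K27ac mark active promoters, whereas H3K4me1 marks enhancers and the flanks of promoters.

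Of the 78 genes, 51 encode large subunit proteins, of which 31 have a bacterial counterpart and 20 are specific to mitochondria. Another 26 encode small subunit proteins, of which 16 have a bacterial counterpart and 10 do not. The symbol does not always give the place of the protein. *Mrps30* and *Mrps18a* encode proteins of the large subunit, and *Mrps36* encodes a component of the alpha-ketoglutarate dehydrogenase complex rather than a ribosomal protein. A further list of 38 genes for other parts of mitochondrial translation (subunits with other symbols, assembly, initiation, elongation and release factors, rRNA modification enzymes) served for comparison.

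The promoters of 5 of these genes are shown, because the results turn on them. Averaged over the 4 libraries, *Mrps18b* had the widest H3K9ac peak of the group and *Mrpl35* the narrowest. *Mrpl2* had the largest difference in H3K9ac width between genotypes. *Mrpl43* carried a repeated ETS core, and *Mrps11* shares its promoter with *Mrpl46* on the other strand. Sequences are from RefSeq (GRCm38.p6, the assembly of mm10), run 5′ to 3′ on the strand of the gene from 250 bases before to 50 bases after its start, and stand at chr17:35916391-35916690 (minus strand), chr6:71823735-71824034 (minus), chr17:46645971-46646270 (plus, 1 of 3 entries), chr19:45006393-45006692 (minus) and chr7:78782881-78783180 (plus), in this order. Capitals mark an ETS core (CCGGAAG, or CTTCCGG on the other strand) in *Mrps18b* and *Mrpl43*, an E-box (CACGTG) in *Mrpl2*, and the Yy1 sequence in *Mrpl35* (plus strand of the gene) and *Mrps11* (other strand).
Mrps18b: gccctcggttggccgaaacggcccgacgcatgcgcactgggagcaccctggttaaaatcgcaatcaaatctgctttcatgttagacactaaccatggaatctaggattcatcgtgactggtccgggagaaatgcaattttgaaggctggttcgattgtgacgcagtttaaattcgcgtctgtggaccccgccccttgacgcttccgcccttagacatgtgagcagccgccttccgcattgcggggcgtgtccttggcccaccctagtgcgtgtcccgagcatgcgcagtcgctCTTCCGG
Mrpl35: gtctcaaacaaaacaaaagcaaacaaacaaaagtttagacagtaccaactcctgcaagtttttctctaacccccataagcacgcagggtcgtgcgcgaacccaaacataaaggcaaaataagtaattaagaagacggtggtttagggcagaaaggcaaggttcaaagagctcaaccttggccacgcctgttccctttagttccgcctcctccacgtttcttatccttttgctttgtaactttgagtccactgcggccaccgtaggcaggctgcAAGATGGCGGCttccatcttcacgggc
Mrpl2: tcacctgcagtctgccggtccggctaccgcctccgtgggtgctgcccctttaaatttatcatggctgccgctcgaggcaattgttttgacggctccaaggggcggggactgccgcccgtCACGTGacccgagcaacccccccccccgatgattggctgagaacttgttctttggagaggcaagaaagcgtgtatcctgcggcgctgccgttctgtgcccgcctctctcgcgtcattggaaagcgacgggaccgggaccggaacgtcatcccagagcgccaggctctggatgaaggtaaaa
Mrpl43: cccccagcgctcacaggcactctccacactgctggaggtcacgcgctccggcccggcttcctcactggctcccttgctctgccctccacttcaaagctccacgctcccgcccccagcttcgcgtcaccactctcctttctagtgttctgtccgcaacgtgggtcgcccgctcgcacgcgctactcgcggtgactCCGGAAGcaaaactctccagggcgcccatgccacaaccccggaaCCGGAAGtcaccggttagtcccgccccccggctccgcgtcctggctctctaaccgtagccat
Mrps11: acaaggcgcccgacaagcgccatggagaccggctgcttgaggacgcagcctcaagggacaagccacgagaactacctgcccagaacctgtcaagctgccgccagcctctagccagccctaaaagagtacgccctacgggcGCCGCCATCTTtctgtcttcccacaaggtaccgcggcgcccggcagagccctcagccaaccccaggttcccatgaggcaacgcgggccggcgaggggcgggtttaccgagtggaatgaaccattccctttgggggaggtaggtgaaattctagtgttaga

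The 16 peak lists hold positions, a fold enrichment and its significance for each peak, and no read counts, so that the depth is unknown and a promoter without a listed peak cannot be called free of the mark. The lists of H3K4me3 and H3K9ac hold 15685 to 33605 peaks each, of which 85.0% to 96.1% reached a q-value of 0.05. Replicate 1 of H3K27ac and H3K4me1 stood apart in both genotypes: its 4 lists had a median peak width of 48 to 49 bp and at most 13 peaks that reached a q-value of 0.05, against a median of 215 to 505 bp in replicate 2. *Kat2a* itself had a promoter peak of H3K4me3 and H3K9ac in all 4 libraries and of H3K27ac in replicate 2 of both genotypes, and a peak at its start says nothing about the excision. Of 10 myeloid genes, 8 had H3K9ac at the promoter in all 4 libraries, and *Mpo* and *Elane* had it in all but KO replicate 1. Of the B-cell genes and the T-cell genes examined, 4 and 3, none had H3K9ac in any library. Of 4 erythroid genes, 0 to 2 had it in a given library. Of 4 stromal and endothelial genes, *Col1a1* and *Pecam1* had H3K9ac in all 4 libraries and the other 2 in none.

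A gene was counted as marked when a peak overlapped the window from 1000 bp upstream to 500 bp downstream of any of its annotated starts by at least 1 bp. All 78 genes carried H3K9ac in each of the 4 libraries. Among all protein-coding genes, the share with H3K9ac was 54.4% and 52.7% in WT (replicates 1 and 2) and 51.5% and 52.2% in KO, and 49.4% had it in all 4. H3K4me3 was listed at 78 and 76 of the mitochondrial ribosomal protein genes in WT and at 77 and 78 in KO, against 55.6% and 48.7% of all genes in WT and 51.8% and 53.0% in KO. The mean number was 77.0 ± 1.41 in WT and 77.5 ± 0.71 in KO (SD, n = 2 each; two-sided exact permutation test, p = 1). With 2 libraries against 2, no p under 0.33 can be reached. In 75 genes, H3K4me3 was present in all 4 libraries. With the outermost start alone in place of any start, 75 of the 78 genes had H3K9ac and 73 had H3K4me3 in all 4 libraries. Of all genes, 9989 and 9266 did so under this setting.

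**Figure D1:**
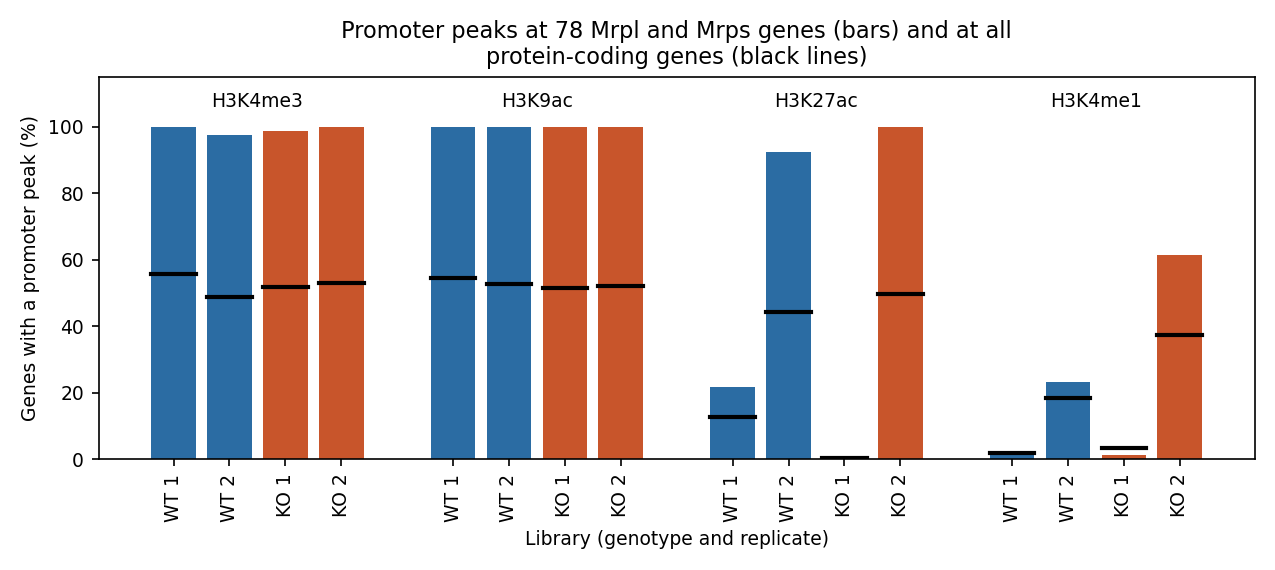
Share of genes with a promoter peak (%) in each of the 16 libraries. Bars show the 78 Mrpl and Mrps genes (blue WT, orange KO) and black lines all 21938 protein-coding genes. The bars of H3K4me3 and H3K9ac stand at 97.4% to 100% in every library, whereas those of H3K27ac and H3K4me1 differ by replicate number.

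The 3 genes without H3K4me3 in a library were *Mrpl52*, *Mrpl54* and *Mrpl45*, all of which encode proteins of the large subunit that have no bacterial counterpart. *Mrpl52* had H3K4me3 peaks of 957 bp in WT replicate 1 and of 562 and 1009 bp in KO, and none in WT replicate 2. *Mrpl54* was likewise without a peak in WT replicate 2, with 587 bp in the other WT library and 292 and 360 bp in KO. *Mrpl45* had peaks of 425 and 330 bp in WT and of 598 bp in KO replicate 2, and none in KO replicate 1. In each case the other replicate of the same genotype did carry the peak. All 3 genes had H3K9ac in every library.

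H3K27ac was listed at 72 of the 78 genes in replicate 2 of WT and at 78 in replicate 2 of KO, against 44.3% and 49.8% of all genes. In replicate 1, the numbers were 17 in WT and 0 in KO, against 12.7% and 0.47% of all genes. H3K4me1 was listed at 18 genes in WT and 48 in KO in replicate 2 (18.4% and 37.2% of all genes), and at 2 and 1 genes in replicate 1 (1.85% and 3.29% of all genes).

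The peak set of a gene was taken to differ between genotypes when a mark had a peak in both replicates of a genotype and in neither replicate of the other. For H3K9ac this held for none of the 78 genes in either direction, where 0.647% of all genes had a peak in WT only and 0.173% in KO only. For H3K4me3 it also held for none, with 0.346% of all genes in WT only and 0.228% in KO only. For H3K27ac, again with no member, the shares of all genes were 0.0228% and 0.0137%. For H3K4me1, none of the 78 genes had the mark in WT only (0.0684% of all genes) and 1 had it in KO only (0.857% of all genes).

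This gene was *Mrpl38*, which encodes a large subunit protein specific to mitochondria (chromosome 11, 116131817 to 116138868, minus strand). Its H3K4me1 peak in KO replicate 1 was 49 bp wide, with a fold enrichment of 2.75 and a −log10 q of 0, and lay from 116134572 to 116134620, inside the gene. The peak in KO replicate 2 was 279 bp wide, with a fold enrichment of 3.18 and a −log10 q of 1.74, and lay from 116138302 to 116138580, near the start of the gene. The 2 peaks did not overlap each other and were counted together because *Mrpl38* has several annotated starts. Its H3K9ac widths of 665 and 681 bp in WT and 645 and 655 bp in KO gave a centred log2 difference of 0.16 ± 0.21 (SE, n = 2 each; limma, adjusted p = 0.899). Of the 38 other genes of mitochondrial translation, *Mrrf*, which encodes the ribosome recycling factor, was the only one with the same pattern.

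*Mrpl46* and *Mrps11* shared H3K4me1 peaks as well. A peak of 81 bp in WT replicate 1 and one of 456 bp in WT replicate 2 overlapped each other, near the outermost start of *Mrpl46*. In KO replicate 2, a peak of 973 bp lay from 78781624 to 78782596 (chromosome 7), inside *Mrpl46* and upstream of *Mrps11*, and KO replicate 1 had none.

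The width of the widest promoter peak was used as the measure of each mark, since the lists hold no counts. The median H3K9ac width of the 78 genes was 1184 and 1089 bp in WT and 1022 and 1074 bp in KO. The corresponding medians of the 10837 protein-coding genes with H3K9ac in all 4 libraries were 1384 and 1393 bp in WT and 1135 and 1263 bp in KO. In every library the mitochondrial ribosomal protein genes thus had the lower median, at 0.86 and 0.78 times that of all genes in WT and 0.90 and 0.85 times in KO. Their median averaged 1136 ± 67.2 bp in WT and 1048 ± 37.5 bp in KO (SD, n = 2 each), and both KO libraries were below both WT libraries. The difference of −88.5 bp gave p = 0.33 in the two-sided exact permutation test, the smallest it can give. Relative to all genes, the genotypes differed by 0.057 in this ratio, and KO was higher (exact permutation test, p = 0.67).

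For H3K4me3, the median width of the 75 genes with a peak in all 4 libraries was 1128 and 743 bp in WT and 819 and 948 bp in KO. All 10247 genes with H3K4me3 in all 4 libraries had medians of 1178 and 727 bp in WT and 840 and 1021 bp in KO. The KO values lay between those of the WT replicates, with means of 936 ± 272 bp in WT and 884 ± 91.2 bp in KO (SD, n = 2 each; exact permutation test, p = 1). The H3K4me3 width thus varied more between WT preparations than between genotypes.

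**Figure D2:**
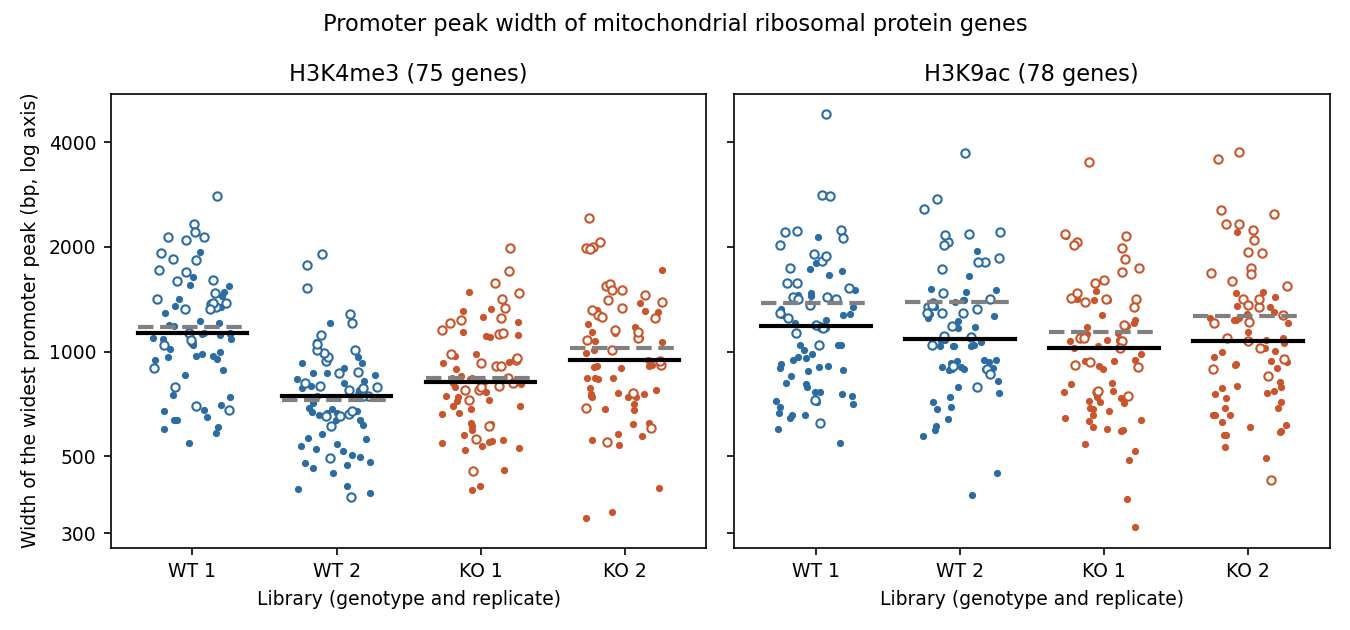
Width of the widest promoter peak (bp, log axis) of each Mrpl and Mrps gene in the H3K4me3 (75 genes) and H3K9ac (78 genes) libraries. Open points are genes whose promoter is shared head-to-head with another gene, filled points the others; black lines are the medians of the group and dashed lines those of all genes with the mark in all 4 libraries, and the black line is below the dashed line in all 4 H3K9ac libraries.

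The order of the genes by H3K9ac width was similar in the 4 libraries. Spearman's rho over the 78 genes ranged from 0.746 to 0.866 between pairs of libraries, and the 2 WT libraries (0.788) were no more alike than WT and KO libraries (0.746 to 0.866). For H3K4me3, rho over 75 genes ranged from 0.486 to 0.580. The values describe genes of shared libraries, which are not independent replicates.

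The widest H3K9ac peak in each library was at *Mrps18b*, which encodes a small subunit protein counted here among those specific to mitochondria (chromosome 17, 35910379 to 35916389, minus strand). It measured 4826 and 3742 bp in WT and 3511 and 3758 bp in KO, and covered the promoter of *Ppp1r10* as well. *Mrpl41*, a mitochondria-specific gene of the large subunit, had 2832 and 2064 bp in WT and 2062 and 3585 bp in KO. *Mrps34*, a mitochondria-specific gene of the small subunit, had 2798 and 2744 bp in WT and 1608 and 2554 bp in KO. The genotypes overlapped at *Mrps18b* and *Mrpl41*, whereas both KO values were below both WT values at *Mrps34*. The median of all genes with H3K9ac was also lower in KO (1135 and 1263 bp) than in WT (1384 and 1393 bp). Relative to these medians, the genotypes overlapped at *Mrps34* as well. *Mrps18b* and *Mrps34* were also among the 3 genes with the widest H3K4me3 peaks, with 2136 and 1908 bp in WT and 1982 and 1996 bp in KO for *Mrps18b* and with 2812 and 1528 bp in WT and 1575 and 1391 bp in KO for *Mrps34*. The other was *Mrpl51* of the large subunit, with 2142 and 1777 bp in WT and 1336 and 2428 bp in KO. In each library the widest H3K4me3 peak of *Mrps18b* lay wholly upstream of its principal start, on the side of *Ppp1r10*. The H3K9ac peak of *Mrps18b* covered that start.

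By mean width over the 4 libraries, the narrowest H3K9ac peak was at *Mrpl35*, which has a bacterial counterpart (chromosome 6, 71812997 to 71826969, minus strand). It measured 657 and 386 bp in WT and 312 and 787 bp in KO, with a fold enrichment of 2.84 and 3.49 in WT and 4.37 and 4.15 in KO. It was the narrowest in WT replicate 2 and KO replicate 1, whereas *Mrpl42* (546 bp) was in WT replicate 1 and *Mrpl54* (427 bp) in KO replicate 2. The next by mean width were *Mrpl45*, with 753 and 570 bp in WT and 516 and 574 bp in KO, and *Mrpl34*, a bacterial-type gene with 721 and 446 bp in WT and 717 and 530 bp in KO. For H3K4me3, *Mrps16* of the small subunit had the lowest mean width among the 75 genes with a peak in all 4 libraries, with 584 and 478 bp in WT and 399 and 405 bp in KO. *Mrpl10*, a gene of the ribosomal stalk, had 677 and 381 bp in WT and 453 and 550 bp in KO, and *Mrpl22*, which encodes a protein of the exit tunnel, had 634 and 579 bp in WT and 536 and 331 bp in KO. Narrow peaks were thus found in both subunits.

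By class of protein, the 30 mitochondria-specific genes had median H3K9ac widths of 1350 and 1271 bp in WT and 1154 and 1226 bp in KO. The 47 genes with a bacterial counterpart had 1127 and 1068 bp in WT and 939 and 994 bp in KO, which was lower in each library. The large subunit genes had 1177 and 1099 bp in WT and 1070 and 1079 bp in KO, and the small subunit genes 1214 and 1158 bp in WT and 922.5 and 1075 bp in KO, with no constant order. *Mrps36*, the gene with no ribosomal product, had 1008 and 895 bp in WT and 1077 and 964 bp in KO. *Mrps30* had 1478 and 1035 bp in WT and 1077 and 1342 bp in KO, and *Mrps18a* had 806 and 1035 bp in WT and 589 and 935 bp in KO, all within the range of the other genes.

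To compare genotypes gene by gene, the log2 width was centred on the median of all genes in each library and tested with limma over all genes with the mark in all 4 libraries. For H3K9ac, none of the 78 genes passed an adjusted p of 0.05, and 0.00% of the 10837 genes did in either direction. At an unadjusted p under 0.05, 1 of the 78 genes and 575 of all genes (5.31%) passed. For H3K4me3, none of the 75 genes passed, with 0.00976% of 10247 genes (1 gene) wider and 0.00976% narrower in KO, and 3 of the 75 and 580 of all genes at an unadjusted p under 0.05. The smallest adjusted p of limma was 0.443 for H3K9ac and 0.641 for H3K4me3 among these genes.

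The centred H3K9ac width was higher in KO in 48 genes and lower in 30, with a median log2 difference of 0.10 against 0.05 for all genes. Without WT replicate 2, the medians were 0.036 and 0.041, so that the order turned. Without centring, the width of 20 genes was higher and that of 58 lower in KO, with a median of −0.11 for these genes and of −0.17 for all genes, so the sign depends on the general shift of the libraries. The centred H3K4me3 width was higher in KO in 34 genes and lower in 41, with a median of −0.06 against 0.00 for all genes. The centred widths of both KO libraries were above those of both WT libraries in 19 of 78 genes for H3K9ac, against 23.2% of all genes, and below them in 11, against 13.1%. For H3K4me3, 13 of 75 genes were above (15.4% of all genes) and 14 below (15.0%).

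**Figure D3:**
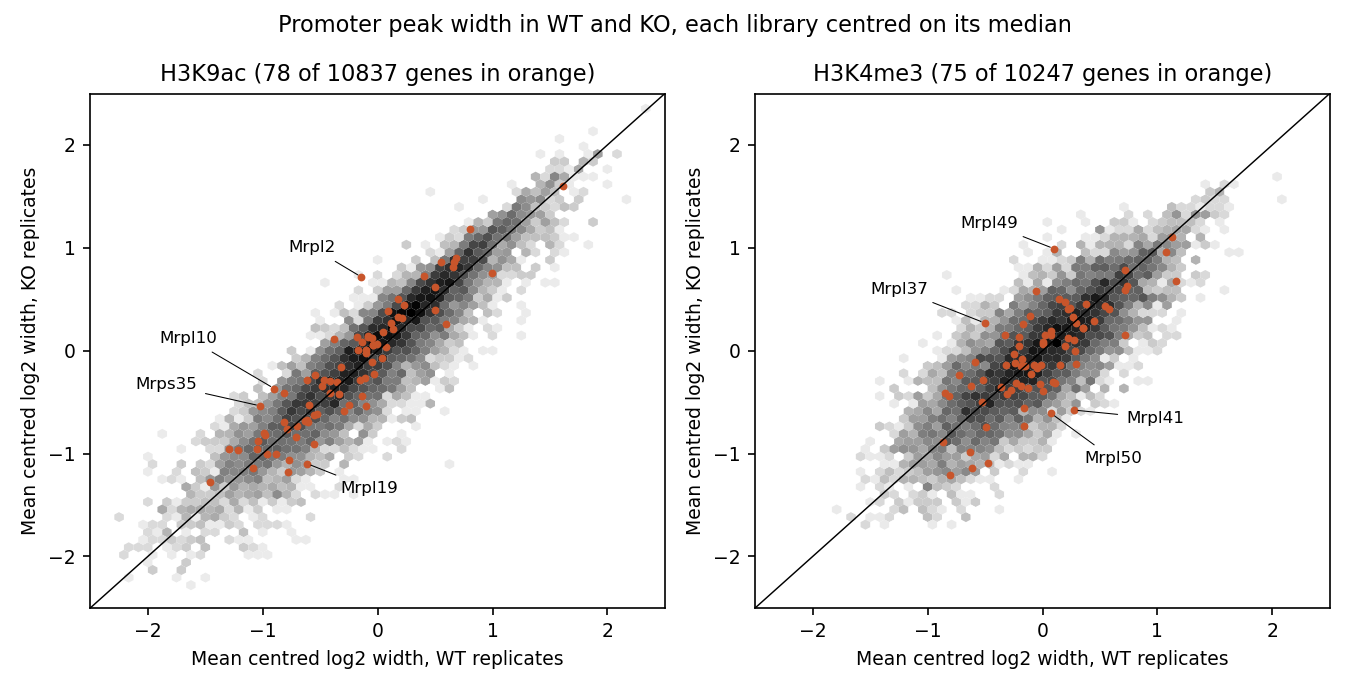
Mean centred log2 width of the widest promoter peak in the WT (x axis) and KO (y axis) replicates for H3K9ac and H3K4me3. Grey hexagons show all genes with the mark in all 4 libraries (darker for more genes) and orange points the Mrpl and Mrps genes, which lie within the grey cloud; the named genes have the largest differences among those whose genotypes did not overlap, and none passed the adjusted test.

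The largest H3K9ac difference among genes without overlap was at *Mrpl2*, which encodes a large subunit protein near the catalytic center (chromosome 17, 46646229 to 46650139, plus strand). Its widest peak measured 1177 and 1347 bp in WT and 1847 and 2093 bp in KO, a centred log2 difference of 0.86 ± 0.15 (SE, n = 2 each; limma, adjusted p = 0.443). The promoter held 2 separate H3K9ac peaks in both WT libraries and 1 peak in both KO libraries. The bases of its promoter windows under any H3K9ac peak numbered 1468 and 1447 in WT and 1542 and 1542 in KO. The windows were thus covered to a similar extent, by 2 peaks in WT and by 1 in KO.

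*Mrpl10* was next, with 624 and 888 bp in WT and 902 and 953 bp in KO (log2 difference 0.53 ± 0.25, adjusted p = 0.891 by limma). Here too the WT libraries held several peaks (2 and 3) and the KO libraries 1 each, and the peaks covered 909 and 1234 bases of the windows in WT against 902 and 953 in KO. *Mrps35* of the small subunit had a single peak in each library, of 656 and 714 bp in WT and 740 and 920 bp in KO (0.48 ± 0.21). *Mrpl19*, a large subunit gene with a bacterial counterpart, went the other way, with single peaks of 793 and 1036 bp in WT and 636 and 492 bp in KO (−0.48 ± 0.29). The adjusted p was also 0.891 for *Mrps35* and *Mrpl19*. The centred groups did not overlap in any of the 4 genes, and the separation of *Mrpl19* was small (−0.80 and −0.43 in WT, −0.84 and −1.36 in KO). Without WT replicate 1, the difference at *Mrpl10* was 0.28. That at *Mrpl19* was −0.22 without KO replicate 2, −0.29 without WT replicate 2 and −0.74 without KO replicate 1.

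For H3K4me3, *Mrpl49* of the large subunit had 1128 and 874 bp in WT and 1706 and 1985 bp in KO (log2 difference 0.89 ± 0.34, SE, n = 2 each; limma, adjusted p = 0.641). *Mrpl37*, another mitochondria-specific gene of the large subunit, had 698 and 612 bp in WT and 1157 and 1076 bp in KO (0.77 ± 0.37, adjusted p = 0.828). Both had 2 H3K4me3 peaks in each WT library and 1 peak in each KO library. For *Mrpl37*, the peaks covered 1257 and 1136 bases in WT against 1157 and 1076 in KO, so the wider peak did not come with more of the window covered. At *Mrpl49*, 1535 and 1137 bases were covered in the WT libraries and 1706 and 1709 in the KO libraries.

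*Mrpl41* had H3K4me3 widths of 1917 and 652 bp in WT and 559 and 689 bp in KO (−0.85 ± 0.38, adjusted p = 0.766 by limma). In each library this widest peak lay wholly upstream of the principal start. Its far end was 2102 and 864 bp upstream in WT and 773 and 1622 bp upstream in KO. The widest peaks of the 2 KO libraries did not overlap each other, and both lay within that of WT replicate 1. The widths at *Mrpl41* therefore do not measure the same peak in each library. *Mrpl50*, also of the large subunit, had 1412 and 674 bp in WT and 612 and 601 bp in KO (−0.69 ± 0.38, adjusted p = 0.903). In both genes WT replicate 1 alone was high, and without it the log2 difference was −0.42 for *Mrpl41* and −0.50 for *Mrpl50*. Without WT replicate 2, that at *Mrpl41* was −1.28. The change from several WT peaks to 1 KO peak in both replicates occurred in 2 of the 78 genes for each mark, *Mrpl2* and *Mrpl10* for H3K9ac and *Mrpl37* and *Mrpl49* for H3K4me3, and the opposite change in 0. Among all genes, the first change occurred in 0.802% for H3K9ac and 0.593% for H3K4me3 (176 and 130 genes). The opposite one occurred in 0.971% and 0.811% (213 and 178 genes). A single peak was present in all 4 libraries in 57 genes for H3K9ac and 41 for H3K4me3, against 24.2% and 19.3% of all genes (5316 and 4226 genes). These shares are of all 21938 genes, unmarked ones included. Only the 10837 genes with H3K9ac and the 10247 with H3K4me3 in all 4 libraries could show such patterns.

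The 38 other genes of mitochondrial translation gave a similar picture. All 38 had H3K9ac in all 4 libraries and 37 had H3K4me3, with *Fastkd2*, which encodes an RNA-binding protein of the mitochondria, lacking it in WT replicate 2. By limma, 0 of 38 genes passed an adjusted p of 0.05 for H3K9ac and 0 of 37 for H3K4me3. At an unadjusted p under 0.05, 1 passed for H3K9ac (*Fastkd2*) and 1 for H3K4me3 (*Lrpprc*, which encodes a stabilizer of mitochondrial mRNA). The centred H3K9ac width was higher in KO in 27 and lower in 11 of them, with a median log2 difference of 0.07, and the H3K4me3 width higher in 15 and lower in 22, with a median of −0.02.

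Many of the mitochondrial ribosomal protein genes start back to back with another gene. A promoter was called head-to-head when the start of a protein-coding gene on the other strand lay within 1000 bp upstream. This held for 29 of the 78 genes (37.2%), against 10.99% of all protein-coding genes and 20.3% of those with H3K9ac in all 4 libraries. Several partners act in mitochondria themselves. *Mrps12* lies 172 bp from *Sars2*, the mitochondrial seryl-tRNA synthetase, *Mrpl43* lies 116 bp from *Twnk*, the helicase that copies mitochondrial DNA, and *Mrpl36* lies 51 bp from *Ndufs6*, a subunit of complex I. *Mrps27* lies 81 bp from *Ptcd2*, which encodes a mitochondrial RNA-binding protein. Other partners were *Fau* at *Mrpl49*, *Tcp1* at *Mrpl18*, *Psma2* at *Mrpl32* and *Hira* at *Mrpl40*. *Mrpl46* and *Mrps11*, at 30 bp, are partners of each other and shared their widest H3K4me3 and H3K9ac peak in every library, so they are not independent measurements.

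The 29 head-to-head genes had median H3K9ac widths of 1520 and 1378 bp in WT and 1412 and 1546 bp in KO. The other 49 genes had 947 and 945 bp in WT and 814 and 915 bp in KO. Head-to-head promoters had the wider median in each library, and they did so among all genes as well (1678 and 1664 bp against 1309 and 1325 bp in WT, 1408 and 1527 bp against 1076 and 1200 bp in KO). For H3K4me3, the medians were 1444 and 841 bp in WT and 953.5 and 1292 bp in KO for the head-to-head genes, and 1058 and 665 bp in WT and 744 and 838 bp in KO for the others. Of the 30 mitochondria-specific genes 14 were head-to-head, and of the 47 with a bacterial counterpart 15. Without a head-to-head partner, the 16 mitochondria-specific genes had median H3K9ac widths of 937.5 and 1041 bp in WT and 777 and 989.5 bp in KO, and the 32 bacterial-type genes 927 and 943.5 bp in WT and 849.5 and 804 bp in KO. The order of the 2 classes therefore turned in KO replicate 1 when head-to-head genes were set aside. Among the head-to-head genes, the 14 mitochondria-specific ones had 1897 and 1596 bp in WT and 1542 and 1708 bp in KO. The 15 bacterial-type ones had 1364 and 1361 bp in WT and 1091 and 1412 bp in KO, which was lower in each library. The promoter of *Mrpl43* shown among the sequences belongs to a head-to-head pair, with H3K9ac peaks of 1580 and 1378 bp in WT and 1412 and 1740 bp in KO.

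The marks took different places around the principal start. Counting every peak of a gene, an H3K9ac peak covered the start in 72 and 72 genes in WT and in 70 and 70 in KO, and an H3K4me3 peak in 67 and 47 genes in WT and 59 and 67 in KO. Where the widest H3K9ac peak covered the start, it reached a median of 342 to 458 bp upstream and 699 to 771 bp downstream, and its summit was a median of 185 to 212 bp downstream. Among all genes, these medians were 383 to 475 bp upstream, 819 to 931 bp downstream and 207 to 217 bp for the summit. The widest H3K9ac peak covered the start in 88.5% and 88.5% of the marked genes of the group in WT and in 83.3% and 85.9% in KO, against 72.8% and 71.5% of all marked genes in WT and 68.5% and 70.5% in KO. H3K4me1 lay mostly beside the start. In KO replicate 2, its peaks covered the start of 1 of 48 genes, with peaks only upstream in 17, only downstream in 20 and on both sides in 10. In WT replicate 2, they covered the start of 0 of 18 genes, with 5 only upstream, 9 only downstream and 4 on both sides. The widest H3K4me1 peak covered the start in 0 genes of the group in either list, against 4.07% of all marked genes in WT and 7.75% in KO. In replicate 2, an H3K27ac peak covered the start in 39 of 72 genes in WT and 58 of 78 in KO. By the widest peak alone, the shares were 48.6% and 65.4%, against 45.5% and 60.2% of all marked genes.

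**Figure D4:**
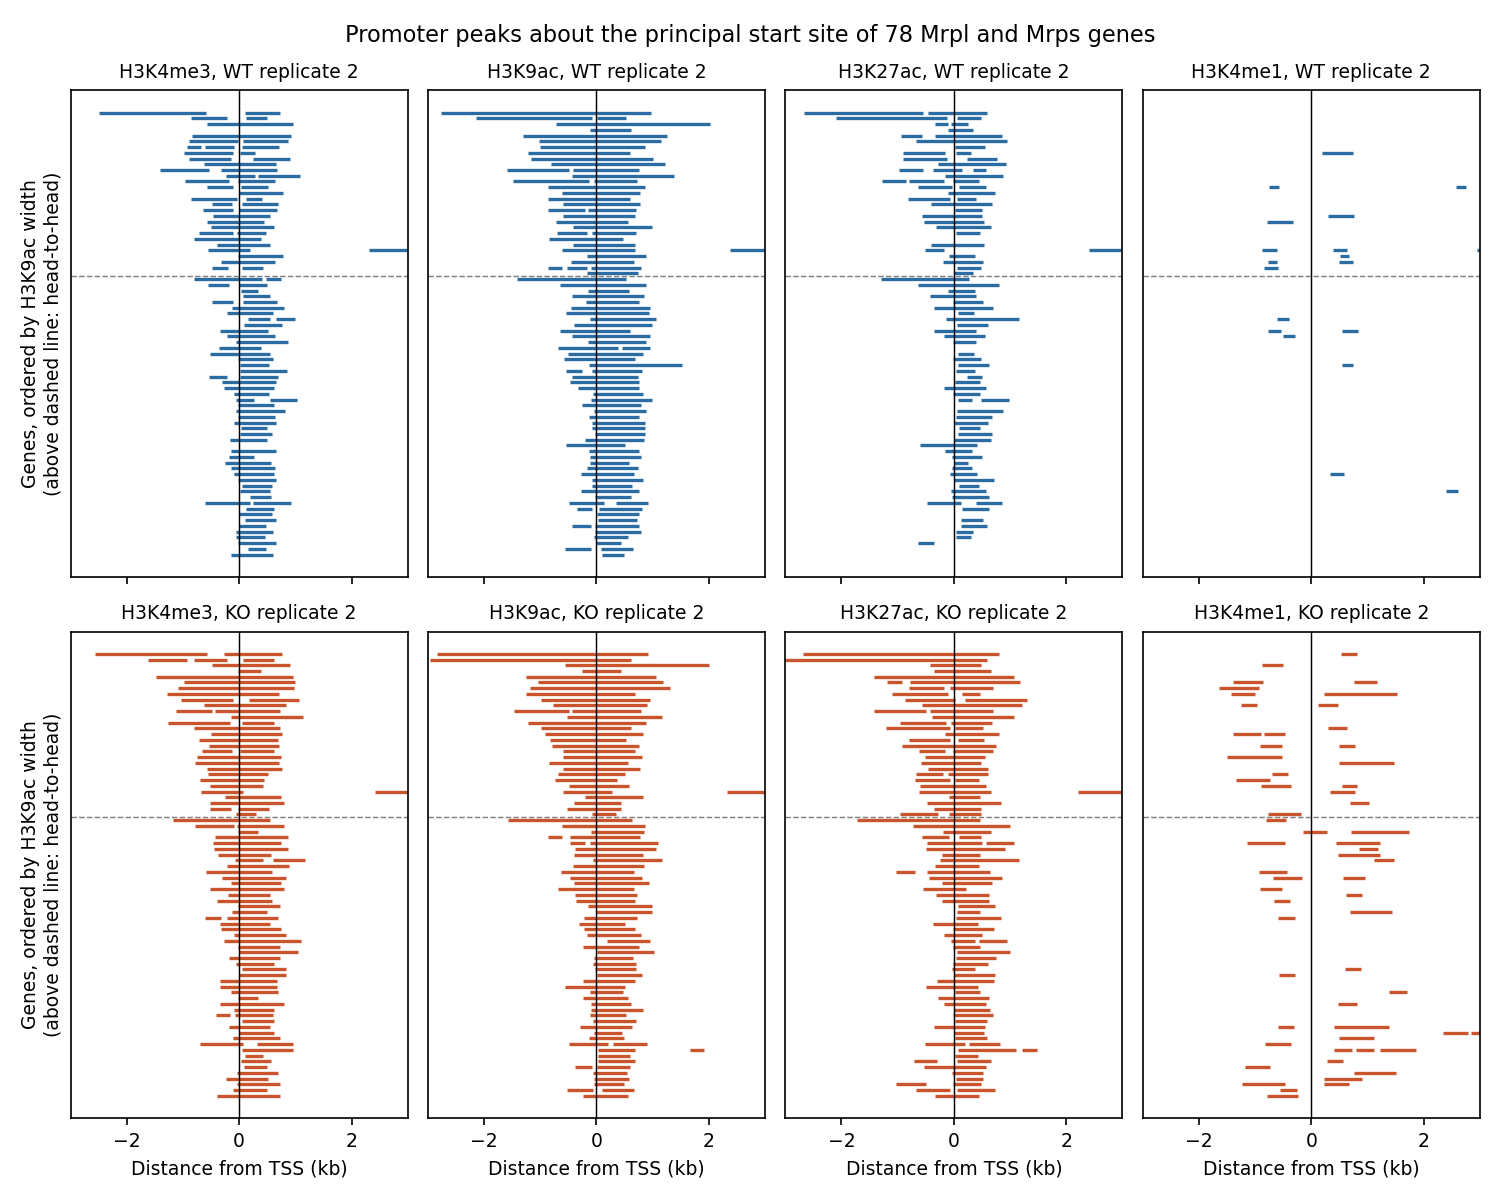
Promoter peaks of the 4 marks within 3 kb of the principal start of the 78 genes in replicate 2 of WT (upper row) and KO (lower row), with upstream to the left. Each line is a peak and each row a gene, ordered by mean H3K9ac width, with the 29 head-to-head genes above the dashed line. At most genes, H3K4me3, H3K9ac and H3K27ac peaks lie over or just downstream of the start, and H3K4me1 peaks lie to its sides. For H3K4me3 in WT, 13 of 76 genes have peaks on both sides of the start and no peak over it.

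Within a library, the H3K9ac peak was the wider one at most of these genes. The median ratio of H3K9ac to H3K4me3 width was 1.03 and 1.55 in WT and 1.18 and 1.10 in KO, against 1.12 and 1.80 in WT and 1.29 and 1.20 in KO for all genes. H3K9ac was wider in 41 of 78 and 72 of 76 genes in WT (52.6% and 94.7%) and in 57 of 77 and 50 of 78 genes in KO (74.0% and 64.1%). Among all genes with both marks, it was wider in 66.9% and 93.9% in WT and in 77.3% and 73.5% in KO. The ratio was highest in WT replicate 2, the H3K4me3 list with the fewest peaks.

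H3K27ac and H3K4me1 could be compared in replicate 2 only, which leaves 1 library per genotype and no replicate check, and no test was made. No gene of the group had H3K27ac in WT only (0.433% of all genes), and 6 had it in KO only (5.85% of all genes): *Mrpl22*, *Mrpl35*, *Mrpl45*, *Mrps15*, *Mrps27* and *Mrps6*. Their KO peaks measured 420, 790, 670, 483, 626 and 768 bp in this order. Of these genes, *Mrpl35* and *Mrpl45* were also the genes with the narrowest H3K9ac peaks, and *Mrpl22* was among those with the narrowest H3K4me3 peaks. *Mrpl22*, *Mrpl35*, *Mrps15* and *Mrps6* have bacterial counterparts, and *Mrpl45* and *Mrps27* do not. The shares of all genes count unmarked ones as well. Over all genes, 9634 had H3K27ac in both lists, 95 in WT only and 1283 in KO only.

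Among the 72 genes with H3K27ac in both replicate 2 libraries, the KO peak was the wider one in 62 (86.1%), against 89.5% of all genes. Their median width was 615.5 bp in WT and 898.5 bp in KO, and the median ratio of KO to WT was 1.46, against 1.47 for all genes. The KO list covered 35.8 Mb in all and the WT list 19.7 Mb. The wider peaks of the mitochondrial ribosomal protein genes thus followed those of the whole library. At *Mrps18b*, the H3K27ac peak was 2109 bp in WT and 3492 bp in KO, and at *Mrpl41* 1972 bp and 3789 bp. In both genes the WT peak lay wholly upstream of the principal start, and the KO peak covered it.

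H3K4me1 was present in WT only in 4 genes (*Mrpl10*, *Mrpl44*, *Mrps17* and *Mrps5*, where 4.00% of all genes were WT only) and in KO only in 34 genes (22.9% of all genes). These shares count unmarked genes as well. Both lists held the mark at 14 genes of the group. Over all genes, 3156 had it in both lists, 878 in WT only and 5013 in KO only. All 14 genes with the mark in both libraries had the wider peak in KO, against 94.9% of all such genes, with a median ratio of 2.11, against 2.41 for all genes. The list of KO replicate 2 held 78042 peaks and that of WT replicate 2 held 45770. With the strongest 45770 peaks of each list, an alternative chosen after the data had been seen, 33 genes had H3K4me1 in KO and 18 in WT, so the difference in the number of genes fell from 30 to 15. The shares of all genes were then 26.2% in KO and 18.4% in WT. The *Mrpl12* promoter, a gene of the ribosomal stalk, had 2 H3K4me1 peaks in KO replicate 2, the wider of 780 bp, and none in WT.

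RefSeq promoters were matched for 69 of the 78 genes, with 75 promoter entries. Those of *Mrpl13*, *Mrpl15*, *Mrpl19*, *Mrpl38*, *Mrpl4*, *Mrpl54*, *Mrps28*, *Mrps34* and *Mrps35* were not matched. The ETS core CCGGAAG, searched on both strands like the other sequences, was present in 26 of 75 promoters (34.7%). Among all 21262 protein-coding promoters of the same length it was present in 11.6%, and among the 10938 of genes with H3K9ac in all 4 libraries in 19.4%. Of the 31 matches in the mitochondrial ribosomal protein genes, 28 began after base 150 of the 300 bases. *Mrpl43*, *Mrpl52*, *Mrpl53*, *Mrpl58* and *Mrps16* each had 2 matches. The ETS core was present in 11 of 26 head-to-head genes and in 15 of the 43 others.

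The Yy1 sequence, in capitals at *Mrpl35*, was present in 5 promoters (6.67%), against 0.889% of all promoters and 1.64% of those of genes with H3K9ac. Besides *Mrpl35* and *Mrps11* it was found in *Mrpl37*, *Mrps18a* and *Mrps27*. The Nrf1 palindrome was present in 3 promoters (4.00%), against 1.33% of all. The E-box CACGTG was present in 9.33%, against 7.84% of all and 10.2% of those of genes with H3K9ac, and 3 of the 7 promoters with it were overlapping entries of *Mrpl2*. The CCAAT sequence of Nfy was present in 40.0%, against 38.2%, and the GC box GGGCGG in 52.0%, against 46.2% of all and 64.1% of those of genes with H3K9ac. Counted by gene instead of by promoter, the order turned for the E-box (7.25% against 8.91% of all) and Nfy (39.1% against 42.3%), and the GC box stood at 49.3% against 49.2%. The median GC content was 58.7% and the median number of CpG was 21, against 56.3% and 13 for all promoters and 61.0% and 21 for those of genes with H3K9ac. Some letters of these sequences overlap in single promoters, and the promoter windows of *Mrpl46* and *Mrps11* overlap. A match describes the letters only and not the binding of a factor.

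**Figure D5:**
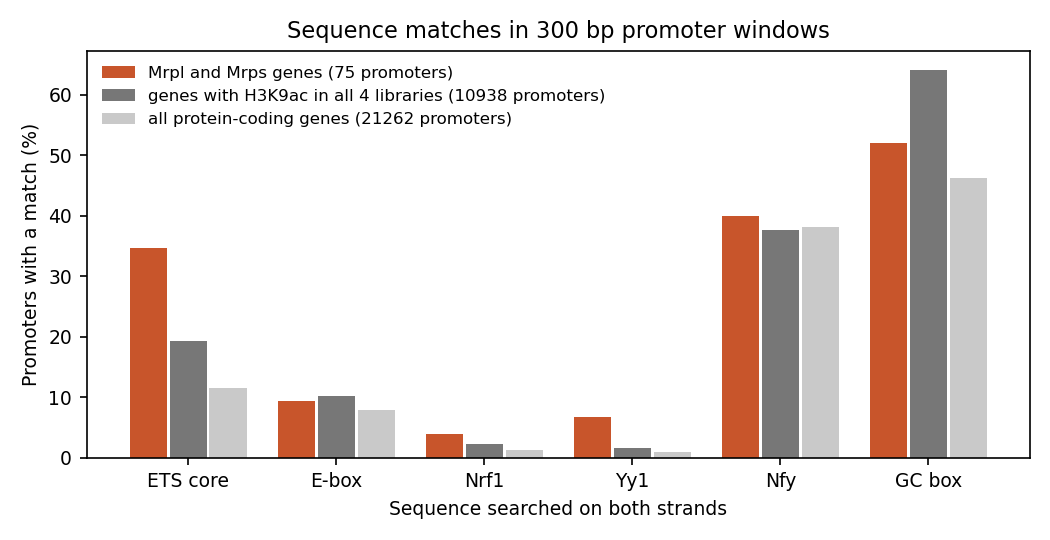
Share of 300 bp promoter windows (%) with each sequence on either strand, for the Mrpl and Mrps genes (orange), genes with H3K9ac in all 4 libraries (dark grey) and all protein-coding genes (light grey). The ETS core stands at 34.7% in the group against 11.6% of all promoters, and the GC box lies between the other 2 sets.

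Genes with an ETS core had median H3K9ac widths of 1198 and 1263.5 bp in WT and 1045.5 and 1168 bp in KO. Genes without one had 1169 and 1046 bp in WT and 983 and 1001 bp in KO. The median was higher with the ETS core in each library, while single genes ranged from 312 to 4826 bp.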

How the data were processed

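H3K4me3, H3K9ac, H3K27ac and H3K4me1 were immunoprecipitated from 2 pools of leukemic marrow (5 WT and 4 KO animals), with 500000 cells per condition (H3K27ac, H3K4me1) or 5000000 (H3K9ac, H3K4me3). Alignment to mm10 with BWA and peak calling with MACS2, library by library, were done by the authors (versions are not given in the sources used here). The study's methods name a q-value of 0.05, but the lists hold many peaks above it, and all listed peaks were used. The deposited lists give for each peak a score, a fold enrichment (a ratio to background), −log10 p and −log10 q. No counts are given, so the depth and the precision it allows are unknown. The input libraries were not analysed here.

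Peaks overlapping the window from 1000 bp upstream to 500 bp downstream of any GENCODE M21 start by at least 1 bp were assigned to genes, and the widest was measured. A peak of a shared promoter was assigned to each gene. Library medians were compared by two-sided exact permutation tests, and log2 widths, centred per library on the median of genes with the mark in all 4 libraries, by limma 3.58.1 (R 4.3.3; trend, Benjamini-Hochberg over all genes tested). The test was checked on simulated data. The study states that 1 replicate each of H3K27ac and H3K4me1 was left out and does not name it. Because replicate 1 of both marks held almost no peaks that reached a q-value of 0.05, genotypes were compared in replicate 2 for these marks. Python 3.11.15, numpy 2.4.6, pandas 2.3.3, scipy 1.17.1 and bedtools 2.31.1 were used. Promoter sequences are those of RefSeq (GRCm38.p6).

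Genes named were those whose peak set differed, the 3 widest and 3 narrowest per mark by mean width among genes with the mark in all 4 libraries, the 4 with the largest centred difference without overlap per mark, genes without either mark (there were 0), genes whose symbol does not give their place, and genes of the comparison list that differed. *Mrpl52*, *Mrpl54*, *Mrpl46*, *Mrps11*, *Mrpl43*, *Mrpl12*, *Mrpl42*, *Fastkd2*, *Lrpprc* and the genes of the replicate 2, head-to-head and sequence comparisons were named after their values were seen. The members and gene lists were chosen with earlier results of these data known. The alternatives were a q-value limit of 0.05, equal numbers of peaks, the summit inside the window, the outermost start, total or covered length, no centring, quantile normalization, no filter, the replicate block, and leaving out each library.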

Additional observations from a re-analysis of the deposited data

Results flagged for a closer look

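H3K27ac replicate 1 entered no comparison between genotypes. In WT replicate 1, peaks were nevertheless listed at 17 of the 78 mitochondrial ribosomal protein genes (21.8%), against 12.7% of all protein-coding genes, and in KO replicate 1 at 0 of 78, against 0.47%. They are listed here because the peaks stand in a list that the comparisons did not use, and KO replicate 1 had none. The 17 genes include *Mrpl12*, *Mrpl41*, *Mrpl49* and *Mrps18b*, and all 17 also had H3K27ac in replicate 2 of both genotypes. The share of 12.7% counts unmarked genes as well. Among genes with H3K27ac in both replicate 2 libraries and not in KO replicate 1, 17 of the group had a WT replicate 1 peak and 55 had none. Over all genes, these numbers were 2433 and 7129, a similar split. In WT replicate 1, the following held for the 17 genes. The peaks were 48 to 160 bp wide, with a median of 60 bp, and 0 of them reached a q-value of 0.05. The WT list held 26791 peaks and the KO list 2725, and the part of this difference in the result was not tested.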

How the results depend on the processing

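The call of limma, 0 mitochondrial ribosomal protein genes for H3K9ac and for H3K4me3, was the same under every alternative that was run. Over all genes, H3K4me3 gave 1 wider and 1 narrower gene in KO, 2 and 3 with the replicate block, 61 and 12 without WT replicate 1, 5 and 6 without WT replicate 2, 3 and 1 with the outermost start, and 1 or 0 genes in all with a q-value of at most 0.05, no filter, no centring, quantile normalization, the summit, total length, covered length or without KO replicate 1. The difference in the number of genes with H3K4me3 (KO minus WT, 0.5) turned to −0.5 with equal numbers of peaks, and ranged from −0.5 (without WT replicate 2) to 1.5 (without WT replicate 1). That in median H3K4me3 width (−52 bp) ranged from −244.5 bp (without WT replicate 2) to 140.5 bp (without WT replicate 1) and was 12.5 bp without KO replicate 1. The H3K9ac difference (−88.5 bp) stayed negative, from −136 to −41 bp, and was −153.8 bp with total length. The median H3K9ac log2 difference of these genes minus that of all genes was 0.05, and ranged from −0.0049 without WT replicate 2 to 0.077 without WT replicate 1.

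The labels do not say what same-numbered replicates shared beyond the number, and replicate 1 of H3K27ac and H3K4me1 stood apart in both genotypes. The deviations of same-numbered replicates had correlations of 0.143 for H3K9ac and −0.046 for H3K4me3. With the replicate block, the median width differed by −162.5 and −14.5 bp in the 2 pairs for H3K9ac (mean −88.5 bp) and by −309 and 205 bp for H3K4me3 (mean −52 bp), and no call changed among the mitochondrial ribosomal protein genes.

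The number of genes whose peak set differed in both replicates (1) was 0 with a q-value of at most 0.05, 0 with equal numbers and 3 with the summit inside the window, when *Mrpl46* and *Mrps11* joined *Mrpl38* through a shared WT peak. With the outermost start it was 1, but *Mrpl46* in place of *Mrpl38*. In replicate 2, the excess of genes with H3K27ac in KO (6) was 9 with a q-value of at most 0.05 (69 genes in WT and 78 in KO), 3 with numbers equal over all 4 lists (10 and 13), 5 with the outermost start (70 and 75) and 5 with equal numbers in the replicate 2 lists (72 and 77). The excess for H3K4me1 (30) was 38 with a q-value of at most 0.05, 0 with numbers equal over all 4 lists, 20 with the summit, 21 with the outermost start and 15 with equal numbers in the replicate 2 lists. The cause of these changes was not tested. The unknown depth limits every statement on a missing peak.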
